A study of Mus musculus with 4 samples.

Results

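Endothelial cells (ECs) of the heart that held transcripts of Apln and Pgf were described here in the mouse left ventricle under a control diet and under a diet that models heart failure with preserved ejection fraction (HFpEF). They numbered 583 of the 39829 cells kept, of the 36364 ECs among those, and of the 30431 ECs that passed the same capillary gate. The members were chosen by their own UMI counts (unique molecular identifiers, each standing for 1 captured transcript): at least 3 UMIs in total of the endothelial genes Pecam1, Cdh5, Kdr, Tie1, Egfl7 and Cldn5, at least 2 of Apln plus Pgf, 0 of the arterial genes Gja5, Fbln5 and Bmx, 0 of the venous gene Selp, 0 of the endocardial and lymphatic genes Npr3, Prox1 and Mmrn1, at most 1 of the cycling genes Mki67, Top2a and Birc5, and at most 1 of the mural genes Kcnj8, Abcc9, Vtn and Pdgfrb. Values of these genes are therefore a description and were not tested. The 29848 ECs that passed every gate but had fewer than 2 UMIs of Apln plus Pgf served as the comparison cells and are called other capillary ECs.

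The 4 libraries came from RFP-positive left ventricular cells sorted by flow cytometry, from mice of a C57BL/6N background that carried loxP sites in the SR-B1 gene, a tamoxifen-inducible Cre driven by the endothelial Cdh5 promoter (Cdh5-CreER) and a tdTomato reporter preceded by a stop cassette, so that only cells in which Cre had been active were sorted. In the study tamoxifen was given at 7 weeks of age in its SR-B1 deletion lines, as 5 injections of 100 mg/kg at intervals of 2 days, and removes the floxed sequence in ECs that carry the Cre, in controls and HFpEF mice alike. The 2 NC libraries were from mice on a normal diet with 10% of its energy as fat and plain drinking water, and the 2 HFpEF libraries from mice given 20 weeks of a diet with 60% of its energy as fat and 0.5 mg/mL L-NAME, an inhibitor of nitric oxide synthases, in the water. The study compared mice with both and with 1 of the SR-B1 alleles floxed. Its single-cell data covered 4 groups, each genotype on each diet. The labels do not give the genotype or the number of animals behind a library. Libraries of 1 diet may therefore differ in genotype, which would then be part of the spread between replicates. The p-values below measure only the spread between these samples. Scarb1, the SR-B1 gene, was at 113 and 48.2 CPM (counts per 1000000 UMIs) in the capillary-gated ECs of NC replicates 1 and 2 and at 112 and 52.4 in those of HFpEF replicates 1 and 2, lower in replicate 2 of both diets, and no group was made from these values. The RFP gate and the Cdh5 promoter set which cells could be seen, and shares below are shares of sorted cells.

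The libraries held 7465 and 6924 cells in NC replicates 1 and 2 and 5769 and 21685 cells in HFpEF replicates 1 and 2, with 30387717, 31517933, 11163876 and 48003732 UMIs. The HFpEF libraries were shallower per cell, with medians of 1699 and 1577.0 UMIs against 3644 and 4035.5 in NC. Cell barcodes shared by pairs of libraries numbered 10 to 42, and no member shared its barcode with a member of another library. NC replicates 1 and 2 held 111 and 118 members and HFpEF replicates 1 and 2 held 63 and 291. Their summed UMIs were 795856, 936680, 199005 and 1279195, so HFpEF replicate 1 gave the least precise values. Throughout, 4 values in a row are in the order NC replicate 1, NC replicate 2, HFpEF replicate 1 and HFpEF replicate 2, levels are CPM, the UMIs of a gene in the summed cells of a group and library, divided by all UMIs of that sum and given per 1000000, and intervals cover counting error only.

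Tip cells are the ECs at the front of a growing vessel sprout, which extend filopodia, break down and rebuild the basement membrane and lead the stalk cells behind them. Apln encodes apelin, a peptide secreted by sprouting ECs and sensed by the receptor APLNR. Pgf encodes placental growth factor, a VEGF family ligand that binds the receptor FLT1. Kit encodes the receptor for stem cell factor, Nid2 the basement membrane linker nidogen-2 and Col15a1 the basement membrane collagen XV. Adult cardiac capillary ECs are mostly quiescent and are specialised for the transfer of fatty acids to the cardiomyocyte.

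The mouse genes that define these cells lie apart in the genome (GRCm38, which is mm10, with GENCODE vM21 gene bounds): Apln on chromosome X, 48025146 to 48034853, minus strand, Pgf on chromosome 12, 85166635 to 85177790, minus strand, Kit on chromosome 5, 75574916 to 75656722, plus strand, Nid2 on chromosome 14, 19751265 to 19811787, plus strand and Col15a1 on chromosome 4, 47208161 to 47313167, plus strand. The cells held 208, 302, 95 and 701 UMIs of Apln and 426, 447, 124 and 462 UMIs of Pgf. The Apln level in the members was 261, 322, 477 and 548 CPM, against 3.69, 5.98, 6.61 and 10.4 in the other capillary ECs. The Pgf level was 535, 477, 623 and 361 against 2.41, 1.1, 3.24 and 3.11. The rule asks for 2 UMIs at any depth and the HFpEF members were the shallower cells, so these levels are not compared between the diets. In the arterial-gated ECs Apln was 0 in 3 libraries and 1.56 in HFpEF replicate 2, and Pgf was 6.54, 8.7, 15.8 and 8.42.

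The threshold lay within a falling distribution. In the 4 libraries 134, 155, 79 and 448 cells just outside held 1 UMI of Apln plus Pgf, 41, 43, 28 and 149 members just inside held 2, and 53, 54, 23 and 90 members held 4 or more. The highest counts were 40, 112, 13 and 29. Members with both transcripts numbered 34, 36, 21 and 75, those with Apln alone 34, 46, 21 and 140, and those with Pgf alone 43, 36, 21 and 76. Each transcript was also more abundant in capillary-gated ECs chosen by the other: Pgf was at 342, 321, 176 and 222 CPM in cells with 2 or more Apln UMIs and at 13.0, 11.98, 13.1 and 9.78 in cells with none, and Apln was at 169, 259.9, 205 and 259.8 CPM in cells with 2 or more Pgf UMIs and at 8.49, 12.4, 13.5 and 24.4 in cells with none. Both relations held in each of the 4 libraries.

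The other genes in the name of these cells, Kit, Nid2 and Col15a1, were picked from earlier results of these data, so their levels are given without a test. Kit was at 90.5, 86.5, 70.3 and 53.9 CPM in the members and 10.0, 12.7, 17.2 and 10.8 in the other capillary ECs. Its level in arterial-gated ECs was 0.934, 2.44, 1.76 and 2.81 and in vein-gated ECs 14.5, 9.74, 0 and 0. Nid2 was at 106, 117, 161 and 114 in the members and 25.0, 26.1, 23.2 and 38.7 in the other capillary ECs, and Col15a1 at 101, 123, 146 and 107 and 29.1, 33.3, 26.8 and 39.1. For these 3 genes the lowest member library stood above the highest library of the other capillary ECs, and activated capillary ECs (other capillary ECs with at least 2 UMIs of Il6, Adamts4 and Plaur, a state with inflammatory transcripts) were at most 11.5, 42.1 and 67.7 CPM. In vein-gated ECs Col15a1 reached 67.8, 39.0, 36.2 and 90.5, so its highest vein library came closest to its lowest member library. The order of the mean levels of Kit was members at 75.3 ± 16.7 (SD, n = 4), other capillary ECs at 12.7 ± 3.21, activated capillary ECs at 10.9 ± 0.786, vein-gated ECs at 6.07 ± 7.28 and arterial-gated ECs at 1.98 ± 0.823. The members stood clear of the next group, while the ranges of the other capillary, activated and vein-gated ECs overlapped, as did those of the vein-gated and arterial-gated ECs.

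As a measure of stray RNA, Apln was counted in sorted cells that should lack it. It was found in 0 of 3, 7, 2 and 22 T cells, in 0 of 1, 12, 8 and 38 B cells and in 0 of 10, 20, 16 and 71 fibroblast-gated cells, groups too small for a tight limit. Pgf was found in 3, 4, 1 and 20 of the same fibroblast-gated cells and Col15a1 in 7, 12, 6 and 40 of them. Kit had a UMI in 40.5, 43.2, 15.9 and 18.6% of the members (median depths 6927, 7214.5, 2651 and 3378 UMIs) and in 3.47, 4.79, 3.09 and 2.01% of the other capillary ECs (3658.5, 3982, 1741 and 1642 UMIs), and in no fibroblast-gated, B or T cell. The members were thus the deeper cells in every library, which is why levels rather than shares are compared below.

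**Figure D1:**
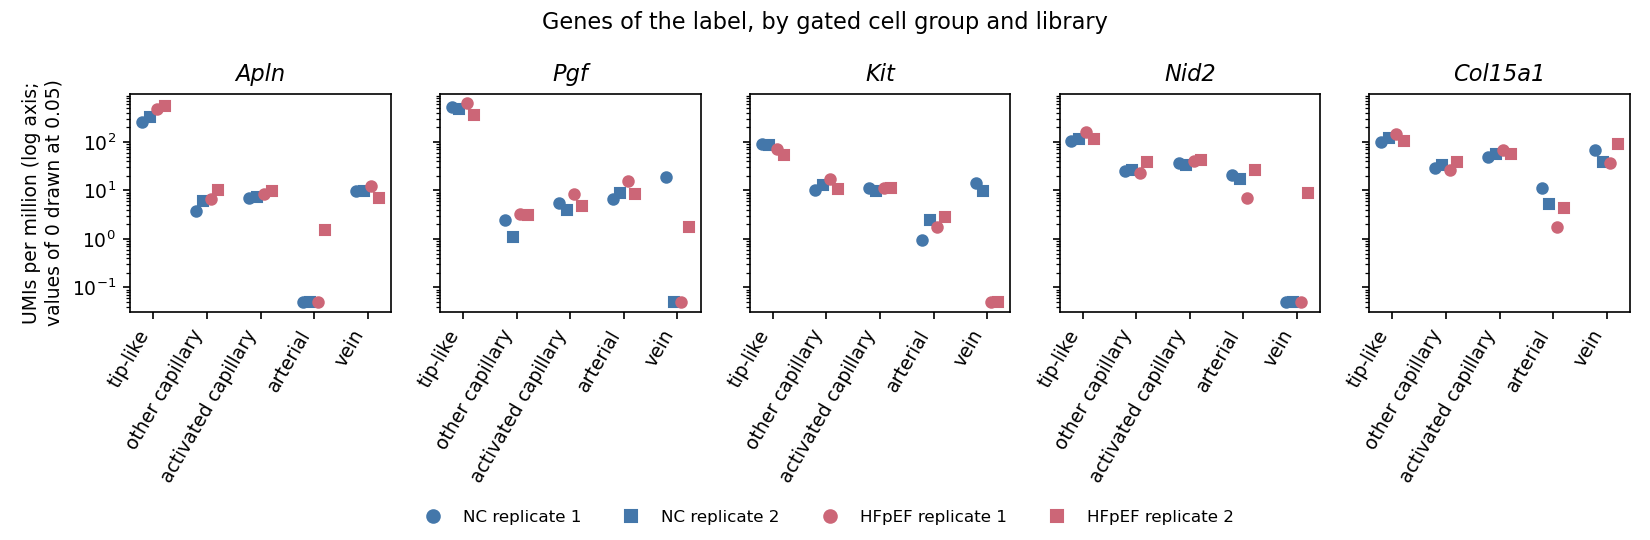
Levels of Apln, Pgf, Kit, Nid2 and Col15a1 in CPM (log axis) in 5 groups of sorted ECs, 1 point for each of the 4 libraries, with values of 0 drawn at 0.05. In all 5 panels the members (tip-like) stand highest, and Apln and Pgf do so by the rule that chose the cells.

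The levels changed with the Apln plus Pgf count and not only at the threshold. Averaged over the 4 libraries, Kit went from 11.7 CPM in the 29032 capillary-gated ECs with no UMI of either gene to 41.6 in the 816 with 1, 59.5 in the 261 with 2, 63.1 in the 102 with 3, 92.3 in the 59 with 4 and 85.9 in the 161 with 5 or more. Nid2 went from 27.4 to 50.1, 67.4, 114, 152 and 191 over the same bins. The cytoskeletal gene Vim, which encodes vimentin, went from 912 to 1533, 2296, 3174, 2934 and 4131. In the opposite direction Timp4, a tissue inhibitor of metalloproteinases, went from 903 to 737, 438, 275, 402 and 289, and Rbp7, a retinol-binding protein gene of capillary ECs, from 1359 to 658, 540.3, 359, 451 and 403. Cells with 1 UMI, which the rule left out, were thus intermediate for each of these 5 genes. Ccl2, which encodes a chemokine, took another course, at 8.22 CPM with no UMI, 25.2 with 1, 7.46 with 2, 36.2 with 3, 65.0 with 4 and 264 with 5 or more, on average over the libraries. At a count of 2 it was above the level at 0 in NC replicate 1 and HFpEF replicate 1 and below it in the other 2 libraries, and at 5 or more it was at 129, 159, 652 and 114, where the 652 came from 26 UMIs in 10 cells. Bins from a count of 3 upwards held as few as 8 cells in NC replicate 1, 13 in NC replicate 2 and 10 in HFpEF replicate 1, so the steps among them carry little weight. Deeper cells reach higher counts: the median depth was 3642.0, 3938, 1732 and 1622 UMIs at a count of 0 and 7497, 7734, 3882 and 5043 at 5 or more.

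**Figure D2:**
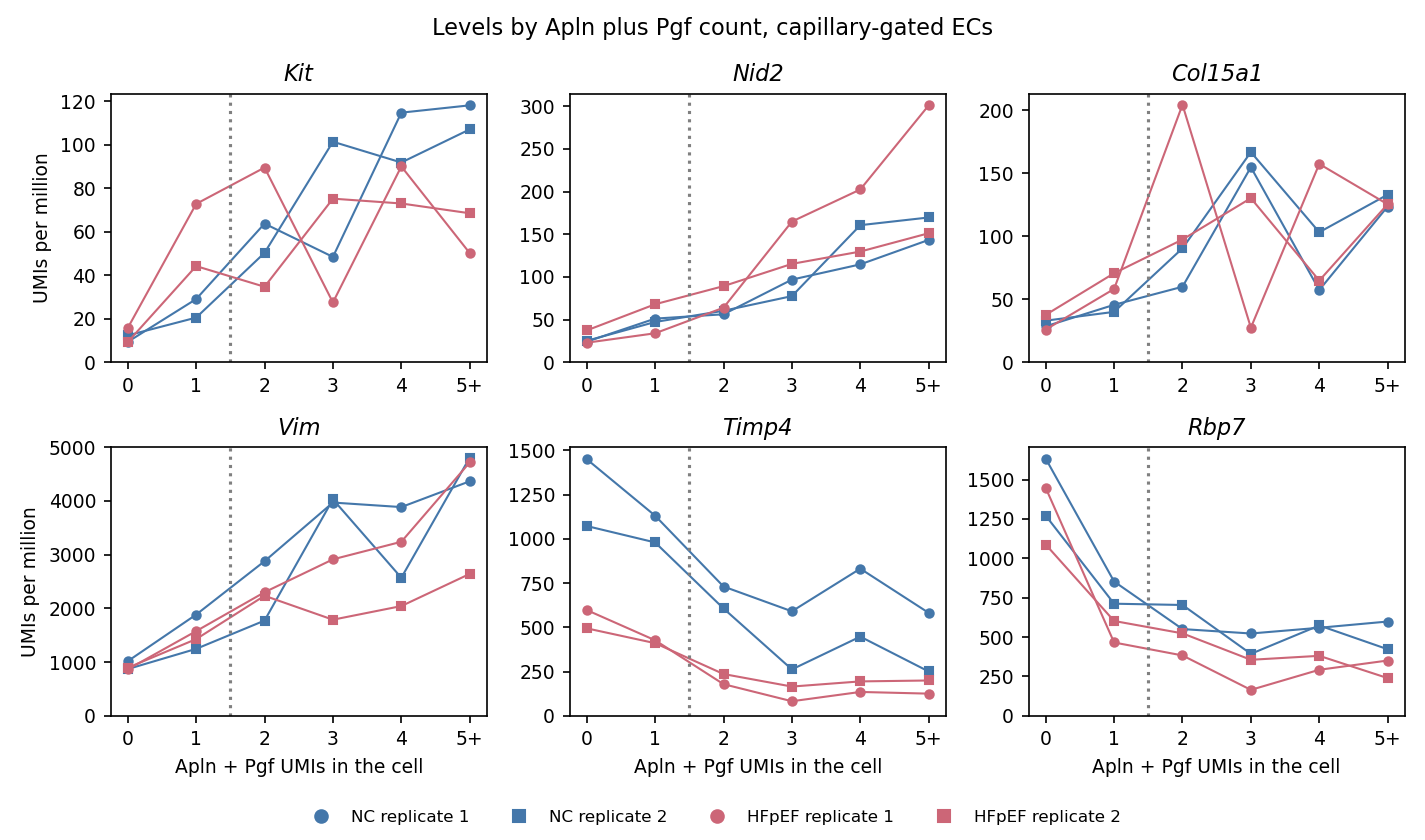
Levels in CPM by the Apln plus Pgf UMI count of the cell, for capillary-gated ECs, 1 line for each of the 4 libraries. The dotted line is the threshold of 2 UMIs. Kit, Nid2, Col15a1 and Vim are lowest at a count of 0 and Timp4 and Rbp7 highest there in every library.

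Across the genes that the rule did not use, the members and the other capillary ECs differed widely. Of 10543 genes tested with edgeR's quasi-likelihood test with the library as a block, 958 were higher in the members (9.09%) and 779 lower (7.39%) at a Benjamini-Hochberg adjusted p under 0.05, and the median over all genes was −0.02 on the log2 scale. Of the gene lists, 16 of 18 cytoskeleton, 7 of 10 chemokine, 12 of 24 tip cell and 12 of 22 basement membrane and matrix genes were higher, and 13 of 14 capillary identity and 6 of 15 lipid handling genes were lower. The lists were chosen with earlier results of these data known, so the counts per list are a description and not an independent test. The cells were picked for Apln and Pgf, so genes that go with these in the same cells would differ, and the test asks whether the difference exceeds the spread between the 4 libraries. Restricted to cells with 1500 to 4000 UMIs, which brings the depths of the groups together, 407 genes were called, 151 higher and 256 lower. The window held 21, 14, 38 and 124 of the 111, 118, 63 and 291 members, so calls lost there may also reflect fewer cells. Of the 1676 called genes that could still be tested, 1619 had the same direction and 388 were still called.

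Of 24 tip cell genes tested, 12 were higher, 3 lower and 9 did not pass, with a median log2 difference of 0.44. Angpt2, the context-dependent Tie2 ligand angiopoietin-2, was at 80.4, 57.7, 45.2 and 63.3 CPM in the members and 16.5, 17.8, 18.2 and 19.0 in the other capillary ECs (log2 difference 1.84, SE 0.153, adjusted p = 7.06e-13). Cxcr4, the CXCL12 receptor of sprouting ECs, was at 104, 50.2, 65.3 and 61.8 against 23.5, 26.6, 27.7 and 27.1 (log2 difference 1.41, SE 0.156, adjusted p = 1.58e-09). In both genes the 4 member libraries lay above all 4 libraries of the other cells. Fscn1, which encodes the actin bundler fascin of filopodia, was at 619, 560.5, 528 and 459.7 against 166, 169, 186 and 234 (log2 difference 1.52, SE 0.0891, adjusted p = 3.34e-17). Mmp14, a membrane-bound metalloproteinase, Nrp2, a VEGF co-receptor, Rhoc, a small GTPase, and Mcam, an adhesion molecule, were higher by 2.92, 1.01, 1.14 and 0.87 on the log2 scale. The Notch ligand gene Dll4 was higher by 0.37, and by 0.31 without passing among cells of 1500 to 4000 UMIs. Esm1, a gene often used to mark tip cells, was at 13.8, 10.7, 5.03 and 23.5 against 8.6, 11.3, 12.6 and 11.7 and did not pass (adjusted p = 0.203). Igfbp3 and Rgcc were lower. Nrp1, a VEGF co-receptor, was lower by little (log2 difference −0.20, SE 0.0599, adjusted p = 0.0169), a call that was lost with DESeq2 (adjusted p = 0.0767), without the library as a block (adjusted p = 0.432) and without NC replicate 2 (adjusted p = 0.0791) or HFpEF replicate 1 (adjusted p = 0.0733).

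Receptors and ligands around these signals did not move as 1 group. Flt1, which encodes the PlGF receptor, was at 579, 678, 497 and 782 CPM in the members against 1510.0, 1476, 1317 and 1479 in the other capillary ECs (log2 difference −1.18, SE 0.063, adjusted p = 3e-18), lower in each of the 4 libraries. Tek, which encodes the angiopoietin receptor TIE2, was at 113, 108, 111 and 105 against 225, 195, 220.4 and 185 (log2 difference −0.90, SE 0.0893, adjusted p = 1.12e-10). The lymphangiogenic ligand gene Vegfc was lower by 1.20 on the log2 scale at low levels, and without a call in the depth window. Of 7 VEGF family genes tested 1 was higher and 3 lower. Kdr, a VEGF receptor gene on this list and on the tip cell list, was used by the rule and not tested. It was at 848, 893, 688 and 1168 against 1205, 1467, 1264 and 1647, lower in every library. Of 12 Notch pathway genes 1 was higher, Dll4, and 3 were lower, Dll1, Hes1 and Hey1. Aplnr, the apelin receptor gene, was at 93.0, 95.02, 60.3 and 97.7 against 58.5, 102, 72.2 and 95.6, and the ranges overlapped. Kitl, which encodes the KIT ligand stem cell factor, was at 372, 495, 563 and 515 against 455, 534, 642 and 630.4, and was lower by 0.23 on the log2 scale (adjusted p = 0.00621), without a call when NC replicate 1 (adjusted p = 0.0705) or HFpEF replicate 2 (adjusted p = 0.0504) was left out.

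Basement membrane and matrix genes were higher in 12 of 22 tested and lower in 3, median 0.43, where 2 of the 12 are Nid2 and Col15a1 of the name. Col4a1 and Col4a2 encode the main chains of collagen IV, the network of the basement membrane. Col4a1 was at 2249, 1975, 1774 and 2027 CPM against 1159.9, 1018, 859 and 1246 (log2 difference 0.90, SE 0.0514, adjusted p = 1.7e-17), and Col4a2 was higher by 0.86. Sparc, a collagen-binding matricellular protein gene, was at 3699, 3329.8, 2724 and 2796 against 1714, 1630.4, 1399 and 1894 (log2 difference 0.90, SE 0.0559, adjusted p = 1.4e-16). Laminin and perlecan genes were higher by less, with 0.49 for Lamb1 and 0.38 for Hspg2. Among cells of 1500 to 4000 UMIs the differences were 0.51 and 0.38, and neither was called. Col18a1, the collagen XVIII gene, was at 31.4, 48.0, 10.1 and 15.6 against 5.19, 5.57, 6.61 and 8.85, higher in each library but from few UMIs. Lamb2, P4ha2 and Tinagl1 were the 3 that were lower.

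Of 18 cytoskeleton and motility genes 16 were higher and 1 lower, Tuba1b, with a median of 0.77. Vim was at 3772, 3491, 3105 and 2258 CPM in the members and 1045, 887, 884 and 918 in the other capillary ECs (log2 difference 1.72, SE 0.0627, adjusted p = 1.04e-23). Tmsb10, an actin monomer-binding thymosin gene, was at 2573, 2201, 3131 and 2230.3 against 1007, 823, 985 and 943 (log2 difference 1.40, SE 0.0517, adjusted p = 1.04e-23). For both genes the lowest member library lay above the highest library of the other cells, and in the depth window their differences were 1.58 and 1.43. Genes of the ribosome and of translation were higher in all 15 tested, by a median of 0.38, with Rps2 at 2204, 2505, 2688 and 2412 against 1476, 1549, 1588 and 1535.

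Among the 15 genes with the largest rise were secreted and surface proteins of several kinds. Lgals1, which encodes the lectin galectin-1, was at 144, 175, 186 and 120.4 CPM against 30.2, 31.9, 28.0 and 25.8 (log2 difference 2.36, SE 0.108, adjusted p = 1.16e-20). Tmem176b, a membrane protein gene, was at 232, 236, 161 and 143 against 41.3, 46.4, 29.9 and 33.5 (log2 difference 2.32, SE 0.0949, adjusted p = 3.63e-22). Trf, which encodes the iron carrier transferrin, was at 17.6, 32.0, 30.1 and 9.38 against 1.05, 1.6, 1.5 and 1.27, the largest difference but from few UMIs (log2 3.86). The tetraspanin genes Cd82 and Cd63 were higher by 2.89 and 2.22, and the hyaluronan receptor gene Cd44 by 2.69. Others of the 15 were Ccl2, Mmp14, Col28a1 (3.05), AA467197 (2.98), Gm13889 (2.37), Fam167b (2.31) and Ift122 (2.26). With all other ECs in place of the other capillary ECs, Gm13889 turned to −0.63 and was not called.

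Chemokine genes were higher in 7 of 10 tested and lower in 1, median 0.72. This was not so against every group: 7 of 9 were higher and 2 lower against arterial-gated ECs, and 4 of 9 and 2 against activated capillary ECs. Against vein-gated ECs 2 of 9 were higher (Ccl2 and Cxcl9) and 2 lower (Ackr3 and Cxcl16), median −0.29. Cxcl10 and Cxcl2 were not called higher than in the vein-gated or the activated ECs. The values that follow are against the other capillary ECs. Ccl2, the attractant of monocytes, was at 60.3, 99.3, 141 and 45.3 CPM in the members and 3.32, 8.9, 6.73 and 15.8 in the other capillary ECs (log2 difference 3.15, SE 0.257, adjusted p = 4.28e-13). Cxcl10, an interferon-induced attractant of T cells, was at 397, 223, 724 and 459.7 against 65.9, 101, 149 and 187 (log2 difference 1.76, SE 0.123, adjusted p = 4.43e-15). The neutrophil attractant gene Cxcl2 was at 308, 267, 382 and 385 against 80.1, 79.4, 97.2 and 176, and Cxcl9 and Cxcl1 were higher by 1.18 and 0.79. These 5 were above in each of 4 libraries. Cxcl12, the CXCR4 ligand gene, went the other way with 745, 733, 412 and 895 against 1633, 1548, 1579 and 2145 (log2 difference −1.27, SE 0.0688, adjusted p = 3.6e-18). More of the members passed the activated gate (33, 43, 13 and 90 cells, or 29.7, 36.4, 20.6 and 30.9%) than of the other capillary ECs (8.72, 6.74, 5.78 and 10.4%), a share that rises with depth. Of the NF-kB and activation list 5 of 11 were higher and 2 lower, and of the interferon list 2 of 18 were higher and 1 lower. Irf1, an interferon regulatory factor gene, was at 358, 529.5, 533 and 469 against 384, 447, 448 and 548, and Scarb1, the SR-B1 gene, at 111, 45.9, 90.5 and 63.3 against 113, 48.3, 112 and 51.9, with overlapping ranges in both.

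Of 14 capillary identity genes 13 were lower in the members and none higher, median −0.76. Timp4 was at 655, 384, 141 and 211 CPM against 1439, 1068, 593 and 491 (log2 difference −1.34, SE 0.0744, adjusted p = 6.41e-18). Car4, which encodes the membrane carbonic anhydrase of capillaries, was at 251, 258, 156 and 169 against 487, 481, 347 and 382 (log2 difference −1.03, SE 0.0746, adjusted p = 1.53e-14). Lpl, the lipoprotein lipase gene, was at 976, 699, 608 and 634 against 1708, 1385, 1403 and 1267 (log2 difference −0.98, SE 0.0571, adjusted p = 2.74e-17). Each was lower in 4 of 4 libraries, and the levels stayed well above 0. The fatty acid transporter gene Cd36, the fatty acid-binding protein gene Fabp4 and Gpihbp1, which anchors lipoprotein lipase to capillaries, were lower by 0.77, 0.61 and 0.31 on the log2 scale, and Fabp4 was still at 18457, 22317, 16407 and 20511. Of 15 lipid handling genes 6 were lower and none higher. Rbp7, not on that list, was at 569, 521, 317 and 406 against 1607, 1246, 1422 and 1066 (log2 difference −1.49, SE 0.072, adjusted p = 8.8e-20). The other genes with the largest falls were Pth1r (−2.22), Alpl (−1.86), Coro6 (−1.52), Nepn (−1.52), Cyp26b1 (−1.51), Prickle1 (−1.51), Slc26a10 (−1.47) and Slc6a6 (−1.45). Igkc, an immunoglobulin gene also named by the rule, was at 1.26, 3.2, 0 and 3.13 against 4.92, 389.6, 13.1 and 12.6, lower in each library. Its log2 difference of −5.55 became −2.20 without NC replicate 2, still called, and 0.80 without cells holding markers of other cell types, not called.

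Hypoxia response genes were higher in 5 of 19 and lower in 4, median −0.01. Adm, the vasoactive peptide adrenomedullin gene, was at 244, 254, 457 and 279 CPM against 112, 115, 159 and 116 (log2 difference 1.23, SE 0.0784, adjusted p = 3.02e-16), while Epas1, which encodes a hypoxia-inducible factor, was lower (log2 difference −0.80, SE 0.0603, adjusted p = 3.7e-14). Of 20 genes of the dissociation stress response 1 was higher and 9 lower, and mitochondrial UMIs made up a smaller median share of the members' UMIs (4.62, 4.02, 5.72 and 4.02%) than of the other cells' (7.10, 6.41, 8.36 and 6.01%). In the other lists the calls were 2 higher and 3 lower of 11 guidance and junction genes, 0 and 2 of 9 venous capillary genes, 1 and 5 of 11 arterial genes, 1 and 1 of 8 leukocyte adhesion genes, 1 and 2 of 13 antigen presentation genes, 1 and 4 of 11 nitric oxide and vasoactive genes, and 1 and 1 of 3 angiopoietin and Tie genes.

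**Figure D3:**
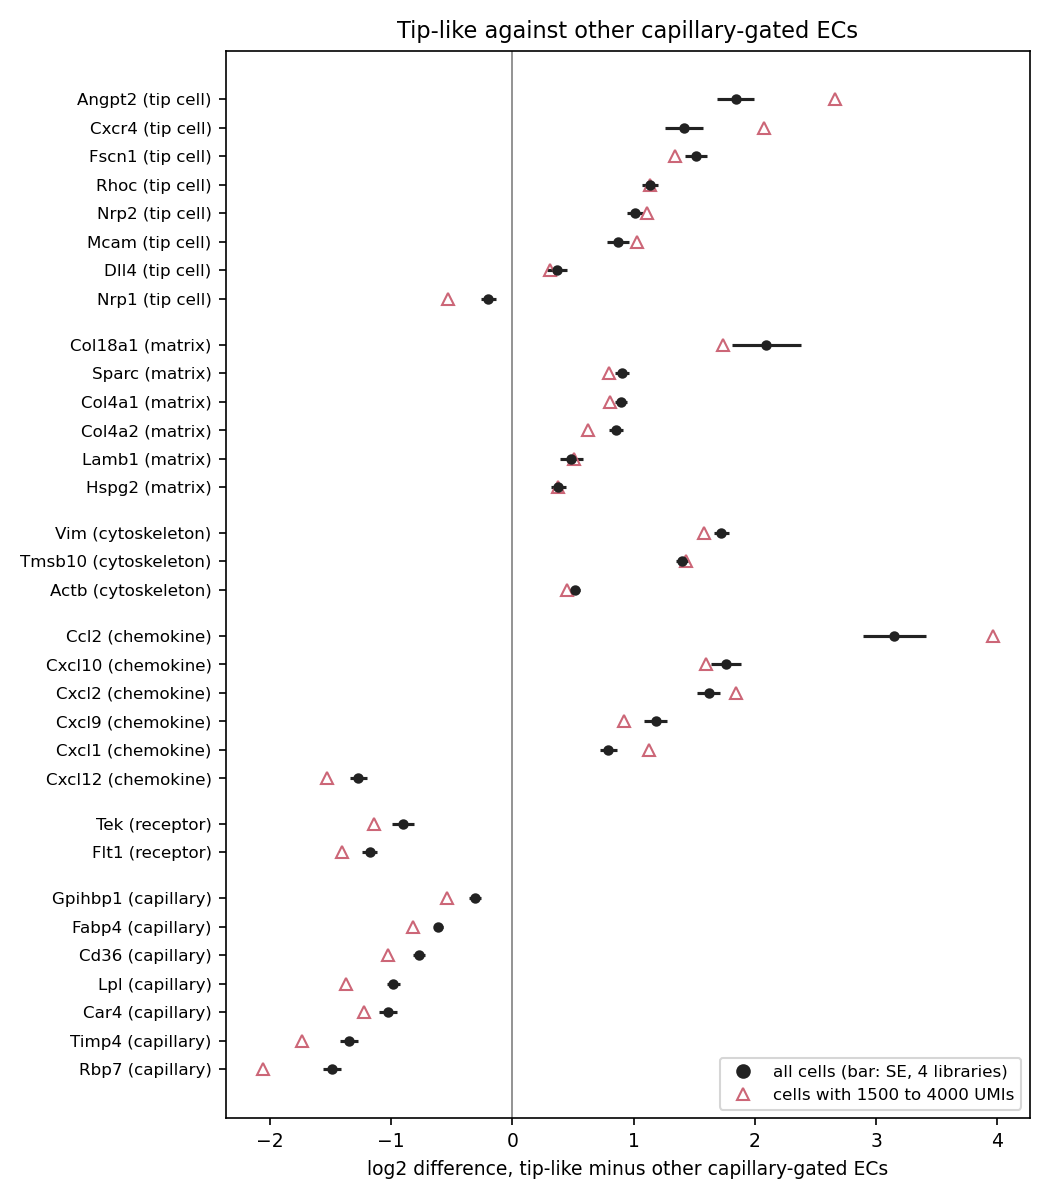
Log2 difference in level between the members and the other capillary ECs by gene and list, black points with SE bars from edgeR over 4 libraries, and open triangles from cells of 1500 to 4000 UMIs. Values right of 0 are higher in the members: chemokine, cytoskeleton, matrix and most tip cell genes lie right of 0, and capillary genes, Flt1, Tek, Nrp1 and Cxcl12 left of 0, by both measures.

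Markers of other cell types were low but uneven. Summed smooth muscle markers were at 2.51, 27.8, 106 and 137 CPM in the members (4.23, 6.48, 22.6 and 13.98 in the other capillary ECs), led by Acta2, with Cnn1 at 0. Summed fibroblast markers were at 3.77, 71.5, 472 and 17.2 (10.1, 9.13, 32.5 and 17.8), led by Dcn, and pericyte markers at 103, 198, 256 and 343 (169.9, 179, 232 and 144), led by Rgs5. Summed red cell markers were at 71.6, 18.1, 40.2 and 118 (2.59, 4.61, 4.11 and 44.6), led by Hbb-bs and above the other capillary ECs in each library, and their part in the differences was not tested. Summed myeloid markers were at 27.6, 21.4, 15.1 and 205 (36.3, 36.2, 41.1 and 56.8), led by S100a9. The T cell genes Cd3e, Cd3d and Cd3g were at 0 in every library, as were Prox1, Mmrn1 and Npr3, the last 3 by the rule. Acta2, Tagln, Dcn, the platelet gene Pf4, Mcm2 and Pcna were higher in the members and Lyz2 and Myl2 lower. Of the members 6, 7, 2 and 13 cells (5.41, 5.93, 3.17 and 4.47%) held 2 or more UMIs of smooth muscle, fibroblast, myeloid, B or T cell markers, against 1.98, 2.56, 1.14 and 1.56% of the other capillary ECs. Without these cells 1836 genes were called, 1667 of them among the 1737.

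The members were not uniform. Those with Pgf alone had higher levels of several of the genes above than those with Apln alone, given here as a description since the subsets were made from the genes of the rule. The median depths were 6816.5, 6981.5, 2326 and 3537 UMIs with Apln alone and 5945, 7234, 2630.0 and 2754.5 with Pgf alone. Vim was at 4982, 5171, 3402 and 3729 CPM in cells with both, 4022, 3695, 4087 and 2525 with Pgf alone and 2215, 1693, 1623 and 1458 with Apln alone. Lgals1 was at 129, 168, 333 and 157 with Pgf alone and 92.6, 87.5, 66.9 and 68.7 with Apln alone, and Col15a1 at 104, 168, 275 and 179.9 and 32.2, 54.3, 33.5 and 55.3. In each library both genes were higher with Pgf alone, and Col15a1 with Apln alone was above the 29.1, 33.3, 26.8 and 39.1 of the other capillary ECs in each library. Angpt2 was the reverse, at 55.6, 21.1, 0 and 16.7 with Pgf alone and 109, 87.5, 134 and 79.2 with Apln alone. Ccl2 was at 163, 161, 406 and 56.6 with Pgf alone and 0, 33.2, 0 and 10.5 with Apln alone. Kit was at 76.5, 94.8, 43.5 and 43.3 with Pgf alone and 88.6, 63.4, 66.9 and 47.8 with Apln alone, higher with Pgf alone in NC replicate 2 and lower in the other 3 libraries.

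**Figure D4:**
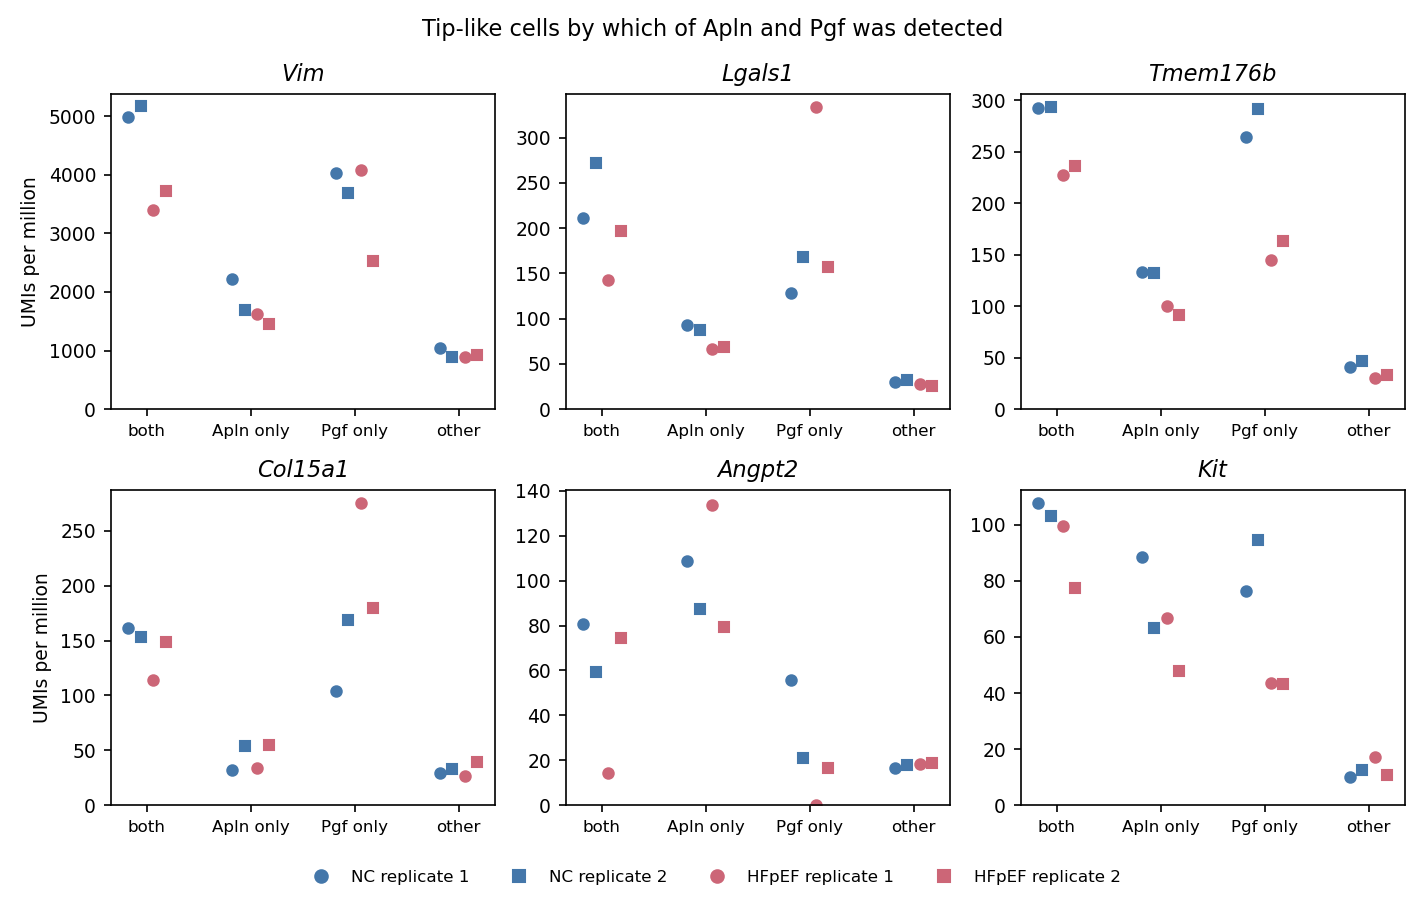
Levels in CPM of 6 genes in members with both transcripts, with Apln alone and with Pgf alone, and in the other capillary ECs, 1 point for each of 4 libraries. Vim, Lgals1, Tmem176b and Col15a1 are higher with Pgf alone than with Apln alone in every library, and Angpt2 is lower.

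Against the other groups of ECs, gated by at least 2 UMIs of arterial genes (2028 cells), by Selp (261 cells) or by the activated gate (2634 cells), the members differed in 2409 of 8099 genes (29.7%), 922 of 5032 (18.3%) and 1509 of 7903 (19.1%), in either direction, with the genes of either gate left out. Cytoskeletal genes were higher in the members in all 3 comparisons (15, 13 and 12 genes, with 1 lower in each), and matrix genes were higher more often than lower (14 against 8, 11 against 5 and 12 against 5). Of the tip cell list 12 of 23 genes were higher and 7 lower against arterial ECs, 14 of 21 and 2 against vein-gated ECs and 13 of 22 and 3 against activated ECs. Fscn1, Cxcr4, Angpt2, Nrp2, Rhoc and Lama4 were higher against each of the 3 groups, while Dll4, Mcam, Flt4, Igfbp3, Jag1, Sox17 and Unc5b were lower than in arterial ECs. Capillary identity genes were higher than in arterial ECs in 8 of 13 and lower in 3, among them Rgcc, Fabp4, Gpihbp1, Car4 and Lpl on the higher side, and all 11 arterial genes were lower. Against vein-gated ECs 8 of 9 venous capillary genes were lower. The comparison groups were picked by arterial genes, by Selp or by activation genes. Arterial, venous and activation genes that go with these in the same cells would be lower in the members, so these counts are a description. Against the activated capillary ECs 12 of 14 capillary identity genes were lower, Angpt2, Esm1 and Mmp14 were higher, and 5 of 8 NF-kB and activation genes were lower with none higher, while Ccl2, Cxcl9, Cxcl16 and Ackr3 were higher and Cxcl1 and Cxcl12 lower. All 20 dissociation stress genes were lower in that comparison, by a median of −0.46, and 11 and 9 of the 20 were lower, with 2 and 1 higher, against arterial-gated and vein-gated ECs. The part of handling in these differences was not tested.

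The share of these cells among capillary-gated ECs was compared between diets after thinning every cell to 1000 UMIs, since the NC cells were deeper. It was 22 of 5050 (0.436%, exact 95% interval 0.273 to 0.659) and 21 of 4922 (0.427%, 0.264 to 0.651) in NC and 17 of 3300 (0.515%, 0.300 to 0.824) and 94 of 11814 (0.796%, 0.643 to 0.973) in HFpEF. Both HFpEF libraries were above both NC libraries, by 0.224 percentage points (NC 0.431 ± 0.00636 and HFpEF 0.655 ± 0.198, SD, n = 2 each, exact permutation test, two-sided p = 0.333, which is the smallest that 2 against 2 libraries allow), but the interval of HFpEF replicate 1 covered both NC values. Cells under 1000 UMIs left out of the thinned data numbered 426, 352, 963 and 5133, or 5.99, 5.26, 17.7 and 24.9% of the cells kept. The diets thus lost unequal parts of their cells, and the effect of this on the shares was not tested. Unthinned, the shares were 1.98, 2.32, 1.50 and 1.87%, which put both HFpEF libraries below NC. Over all capillary-gated ECs, whatever their count, Apln was at 12.7, 19.0, 18.0 and 30.4 CPM (log2 fold change of HFpEF over NC 0.65, SE 0.265, adjusted p = 0.273) and Pgf at 21.0, 20.6, 18.2 and 16.4 (−0.28, SE 0.117, adjusted p = 0.283). The Apln values of the diets overlapped, those of Pgf did not, and neither gene passed. Apln was called without the count filter (adjusted p = 0.0233) and without HFpEF replicate 1 (adjusted p = 0.00338), and Pgf turned to 0.042 without the deepest 5% of cells and to 1.47 among cells of 1500 to 4000 UMIs, where Apln was at 1.65 (adjusted p = 0.058). In these sums more positive cells and more transcript per cell cannot be told apart. In that fit 2 of 12661 genes were called (0.0158%), Cyp1a1 and S100a9, with 2239 at an unadjusted p under 0.05, while DESeq2 called 240 and leaving out NC replicate 1, NC replicate 2, HFpEF replicate 1 or HFpEF replicate 2 gave 34, 96, 623 and 263.

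Within the members, HFpEF and NC differed in 35 of 7482 genes, of which 27 were higher in HFpEF (0.361%) and 8 lower (0.107%), with 757 at an unadjusted p under 0.05. DESeq2 called 10 genes, 9 of them among the 35, the cells of 1500 to 4000 UMIs gave 2, and leaving out HFpEF replicate 1 gave 132, with all 35 among them. Without NC replicate 1, NC replicate 2 or HFpEF replicate 2 only 21, 19 and 12 of the 35 were still called. The 27 that were higher included 7 heat shock genes, given below, and Timp4, Thrsp, Adh1 and Ramp2 were among the 8 that were lower. No list of heat shock genes was fixed, so the 7 have no count of tested genes beside them, and 3 of the 7 are on the dissociation stress list. Apln and Pgf were used by the rule and not tested, and the other tip cell, matrix, cytoskeleton, VEGF, angiopoietin, Notch, hypoxia, chemokine, interferon, NF-kB, adhesion and ribosomal genes had no call in this comparison. Of the dissociation stress list 3 of 20 were higher (Hspa1a, Hspa1b and Hsp90aa1) and the chaperone genes Hspa8 and Dnajb1 were not called, of the capillary identity list 1 of 13 was lower (Timp4), of lipid handling 1 of 14 (Thrsp) and of nitric oxide and vasoactive genes 1 of 10 (Ramp2).

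Hspa1a and Hspa1b encode near-identical copies of the inducible chaperone HSP70, so reads may be split between them and each value is uncertain. Hspa1a was at 1973 and 1277 CPM in the NC members and 5764 and 7004 in the HFpEF members (log2 fold change 2.02, SE 0.197, adjusted p = 6.59e-06). Hspa1b was at 1450.0 and 753 in NC and 4322 and 6173 in HFpEF (log2 fold change 2.30, SE 0.233, adjusted p = 6.6e-06). In both genes each HFpEF library was above each NC library. Hsph1, a co-chaperone gene of the HSP110 family, was at 80.4 and 20.3 in NC and 171 and 338 in HFpEF (log2 fold change 2.55, SE 0.338, adjusted p = 0.000404). The mitochondrial chaperonin genes Hspd1 and Hspe1 were higher by 1.50 and 1.09 on the log2 scale, the HSP90 gene Hsp90aa1 by 1.16 and the HSP40 gene Dnaja1 by 0.85. Hspa1a, Hspa1b and Hsph1 were called with each library left out in turn. Hsph1 was not called with DESeq2 (log2 2.385, adjusted p = 0.421) or among cells of 1500 to 4000 UMIs (log2 3.02, adjusted p = 0.168). In that depth window Hspd1, Hspe1, Hsp90aa1 and Dnaja1 were not called either, at 0.998, 0.94, 1.10 and 0.705 (adjusted p = 0.378, 0.379, 0.168 and 0.282). With members chosen on thinned counts Hspd1, Hspe1 and Dnaja1 were not called, at 1.49, 1.20 and 1.16 (adjusted p = 0.406, 0.717 and 0.188). Hsp90aa1 and Dnaja1 were not called without NC replicate 2 (adjusted p = 0.0527 and 0.199), Hspd1 without HFpEF replicate 2 (adjusted p = 0.0534) and Hspe1 without either (adjusted p = 0.0725 and 0.0774). In the other capillary ECs the same libraries gave 1.44 for Hspa1a, 1.67 for Hspa1b, 0.94 for Hspd1 and 0.72 for Hsp90aa1, where 2 of 12613 genes were called. Heat shock genes also respond to tissue dissociation, which with 2 libraries a diet cannot be told apart from the diet.

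Of the 8 genes that were lower, Timp4 was at 655 and 384 CPM in the NC members and 141 and 211 in the HFpEF members (log2 fold change −1.43, SE 0.226, adjusted p = 0.00199). Thrsp, which encodes a regulator of fatty acid synthesis, was at 187 and 168 in NC and 45.2 and 69.6 in HFpEF (log2 fold change −1.44, SE 0.213, adjusted p = 0.000938). Adh1, an alcohol and retinol dehydrogenase gene, was at 112 and 69.4 in NC and 35.2 and 19.5 in HFpEF (log2 fold change −1.98, SE 0.339, adjusted p = 0.00441). No HFpEF library overlapped the NC libraries for these 3 genes. Ramp2, which encodes the co-receptor that makes CALCRL an adrenomedullin receptor, was at 810.4 and 749 in NC and 442 and 446 in HFpEF (log2 fold change −0.78, SE 0.164, adjusted p = 0.0268). Sult1a1, Ehd1, Mcf2l and Spry1 were lower by 0.98, 1.00, 1.03 and 0.89 on the log2 scale. Timp4 and Thrsp were called with each library left out in turn. Among members with at least 3 UMIs of Apln plus Pgf neither was called (log2 fold change −1.36 and −1.56, adjusted p = 0.0897 and 0.0529). Nor were they called among cells of 1500 to 4000 UMIs (−1.74 and −1.58, adjusted p = 0.0978 and 0.282) or with members chosen on thinned counts (−1.65 and −0.84, adjusted p = 0.303 and 0.717). Under each of these settings 0 genes were called lower. Timp4 was not called with DESeq2 (−1.49, adjusted p = 0.0841). Without HFpEF replicate 2 Adh1 (adjusted p = 0.383), Ramp2 (0.157), Sult1a1 (0.106), Mcf2l (0.6) and Spry1 (0.409) were not called. Without NC replicate 1 Ramp2 (adjusted p = 0.268), Sult1a1 (0.146), Ehd1 (0.339), Mcf2l (0.555) and Spry1 (0.359) were not called, and without NC replicate 2 Ramp2 was not (adjusted p = 0.071). The other capillary ECs gave −1.21 for Timp4, −1.06 for Thrsp, −1.37 for Adh1 and −0.73 for Ramp2, each with HFpEF below NC in every library, without passing there.

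Several other genes that were higher rested on few cells. Gsn, which encodes the actin-severing protein gelsolin, was at 1.26 and 11.7 CPM in NC and 1010.0 and 55.5 in HFpEF, with 70.4% of its UMIs in 1 cell of 14 that had any. H2-Ab1, a class II antigen presentation gene, was at 3.77 and 7.47 in NC and 15.1 and 66.4 in HFpEF, with 56.1% in 1 cell, and Cd74, the class II invariant chain gene, at 0 and 12.8 in NC and 5.03 and 131 in HFpEF, with 60.6% in 1 cell and overlapping libraries. Acta2 was at 0 and 11.7 in NC and 80.4 and 63.3 in HFpEF, from 12 cells, Tagln at 2.51 and 14.9 in NC and 25.1 and 46.9 in HFpEF, and Rgs5 at 90.5 and 180.4 in NC and 236 and 326 in HFpEF, from 70 cells with 36.6% in 1 of them. Tagln and Rgs5 were not called without NC replicate 1 (adjusted p = 0.261 and 0.455) or HFpEF replicate 2 (adjusted p = 0.751 and 0.202), and the log2 fold change of Gsn fell to 2.99 without HFpEF replicate 1. Of the summed markers given above, those of smooth muscle and pericytes were above both NC libraries in both HFpEF libraries, those of fibroblasts in HFpEF replicate 1 alone and those of myeloid cells in HFpEF replicate 2 alone. Without the members that held 2 or more UMIs of such markers 19 genes were called, 14 higher and 5 lower. Of these, the 7 heat shock genes named above kept adjusted p-values of at most 0.0164, and Timp4, Thrsp, Adh1, Sult1a1 and Ehd1 were called as well, while Cd74, H2-Ab1 and Rgs5 were not called and Acta2, Tagln and Gsn were too low to test. Lrrc32 was higher by 1.67 in all members, and not called without those cells (adjusted p = 0.205). Spry2, an inhibitor of growth factor signalling, was higher by 1.79 and Gm12840 by 1.52. The remaining 11 of the 27, with UMIs in 64 to 381 member cells, were Ccdc152, Ifi211, Erh, Nme2, Cacybp, Cebpb, Slc39a1, Skil, Kdm6b, Ptges3 and Nfia, higher by 2.32 for Ccdc152 down to 0.80 for Nfia. Spry2, Lrrc32 and Gm12840 were not called without NC replicate 2 (adjusted p = 0.0661, 0.146 and 0.109) or HFpEF replicate 2 (adjusted p = 0.202, 0.815 and 0.181).

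**Figure D5:**
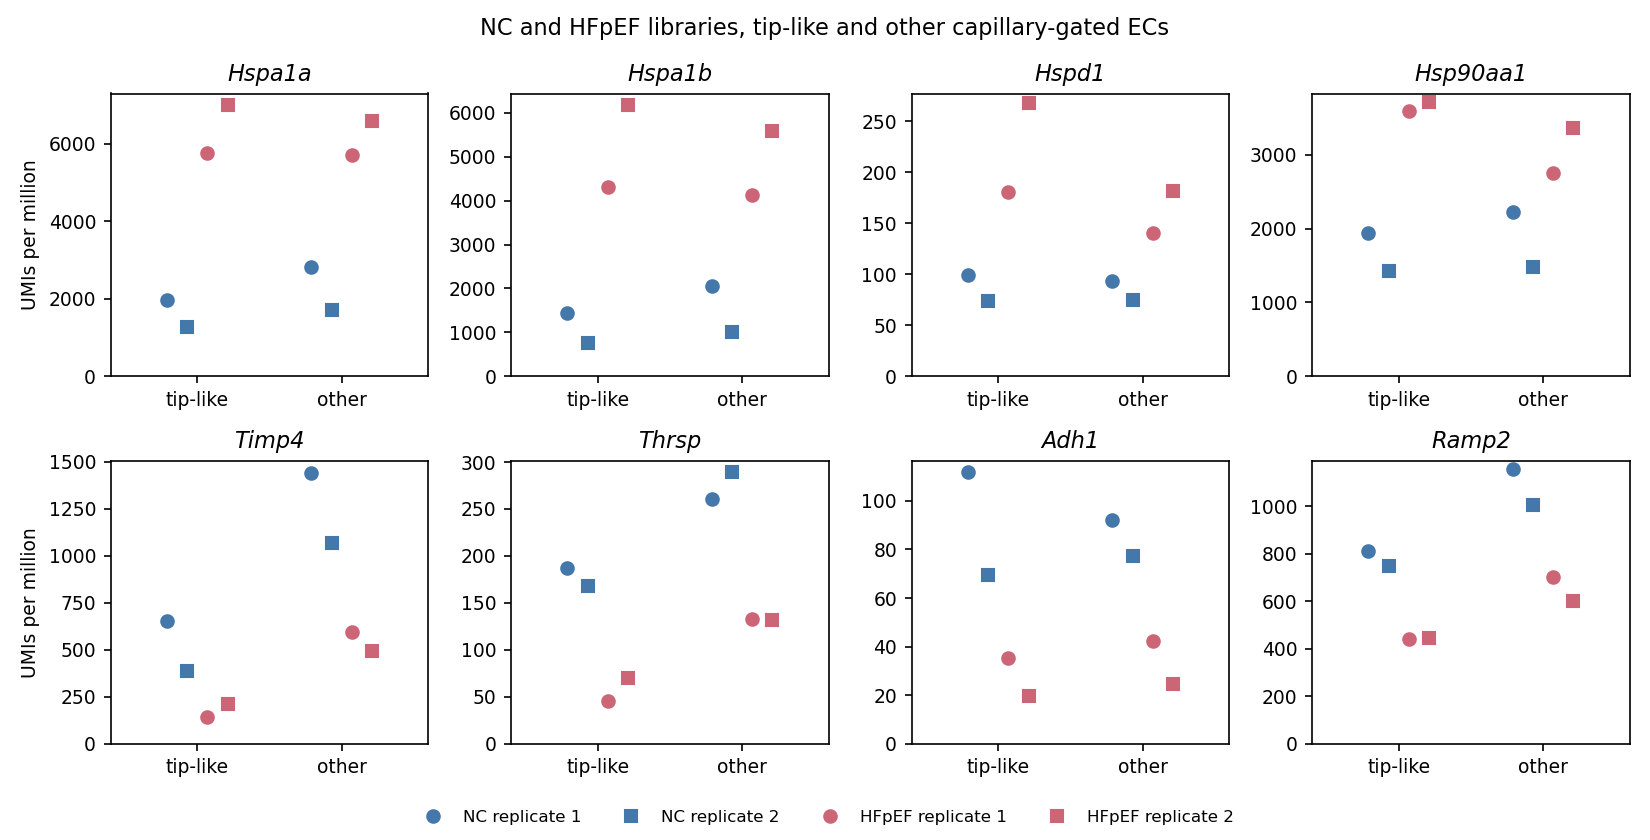
Levels in CPM of 4 heat shock genes and 4 genes that were lower in HFpEF, in the members (tip-like) and in the other capillary ECs, 1 point for each of 4 libraries. In every panel and both cell groups the NC and HFpEF libraries do not overlap.

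Genes that set these cells apart were mostly not called between the diets. Kit was at 90.5 and 86.5 CPM in NC and 70.3 and 53.9 in HFpEF, lower in both HFpEF libraries but without a call (log2 fold change −0.60, adjusted p = 0.402), and Nid2 at 106 and 117 against 161 and 114. Cxcl10 was at 397 and 223 in NC and 724 and 459.7 in HFpEF (log2 fold change 0.92, adjusted p = 0.0969), and was called without NC replicate 1 (adjusted p = 5.68e-05), without HFpEF replicate 2 (adjusted p = 1.7e-06), without the count filter (adjusted p = 0.000223) and with a threshold of 3 UMIs (adjusted p = 0.00944). Whether the diet moved genes differently in the members and in the other capillary ECs was tested as an interaction with edgeR: 39 of 11146 genes were called, 23 with a more positive effect in the members (0.206%) and 16 with a more negative one (0.144%). By the same fit with DESeq2 none were called, with 101 at an unadjusted p under 0.05 against 584 by edgeR. Fscn1 and Vim of the tip cell list and Col18a1 and Sparc of the matrix list were among the 16. For these 4 genes, in that order, the fold changes of HFpEF over NC were −0.24, −0.40, −1.42 and −0.31 on the log2 scale in the members and 0.33, −0.10, 0.56 and −0.02 in the other capillary ECs, none of them called on its own. The interaction comes from 1 fit of both cell groups with the library as a term, so it is not equal to the difference between these separate fits. Within 1500 to 4000 UMIs the difference for Vim turned to 0.016. Among the 10 genes with the largest differences, Jchain, Gzma, Cd52 and Tyrobp had UMIs in 1, 2, 5 and 4 member cells and H19 and Ptcra in 2 and 3, with none in at least 1 whole diet, so no fold is given for them.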

How the data were processed

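Single-cell RNA was measured in 4 libraries by a droplet method. Per the submitters' processing notes and the study's methods, reads were trimmed with fastp and aligned with Cell Ranger 5.0.1 to mm10 with Ensembl release 100. The deposited values are raw UMI counts per gene and cell barcode. The study's methods also state downsampling by mapped reads per cell for an aggregated matrix, which was not used here, and the study's cell annotation was not used either. The authors kept cells with over 200 genes and under 20% mitochondrial UMIs, and the same filter left 40154 of 41843 barcodes. A limit of 1% hemoglobin UMIs then left 39829. No doublet caller was run, and alternatives without the 5% of cells with the most UMIs, and without cells holding 2 or more UMIs of other cell types, were computed instead.

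UMI counts were summed per library and cell group. Differences were tested with edgeR 4.0.16 in R 4.3.3 (quasi-likelihood test, TMM, filterByExpr, Benjamini-Hochberg over all genes tested), with DESeq2 1.42.0 as an alternative, and all p-values across genes are from these tools. Genes of the rule were left out of the tested tables except for Apln and Pgf in all capillary-gated ECs. Library was a block when cell groups were compared. The difference between diet effects was an interaction term. Shares were compared with an exact permutation test, with exact (Clopper-Pearson) 95% intervals. The fits were tested on simulated data. Members, gates and gene lists were chosen with earlier results of these data known. Genes named outside the lists were the 15 with the largest rise and the 10 with the largest fall (for the diets, 10 in each direction and no overlap between diets) among called genes with at least 20 CPM in the higher group and 1 direction in all 4 libraries, and the 5 largest differences of effect each way, with further called genes chosen after their values were seen. Some genes that this rule names are not reported here. Replicate numbers were not taken as pairs: deviations from the group means of same-numbered members correlated at −0.001626.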

Additional observations from a re-analysis of the deposited data

Results flagged for a closer look

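For 15 of the genes named here the effect of HFpEF differed between the tip-like cells and the other capillary ECs by the interaction test with edgeR, which is what singled them out. By DESeq2 none of the 11146 genes was called, with 101 at an unadjusted p under 0.05. The values are the log2 effect in the tip-like cells minus that in the other capillary ECs, from 1 fit of both cell groups with the library as a term, and so are not equal to differences between the effects of the separate fits. Over all genes 0.206% were called with a more positive effect and 0.144% with a more negative one.

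Of 20 dissociation stress genes 3 had a more positive effect in the tip-like cells and 17 were not called. The 3 were heat shock genes, with 0.50 for Hspa1a (adjusted p = 3.02e-06), 0.54 for Hspa1b (adjusted p = 1.23e-06) and 0.36 for Hsp90aa1 (adjusted p = 0.0241). None of the 3 was called without NC replicate 1 (adjusted p = 0.134, 0.0994 and 1), and Hsp90aa1 was not called without NC replicate 2 (adjusted p = 0.447) or HFpEF replicate 1 (adjusted p = 0.148). In both cell groups each HFpEF library was above each NC library for these 3 genes. Bmp4, a bone morphogenetic protein gene, differed by 1.22, and Id1, a target of that signal, by 0.39. The call of Bmp4 was lost with each library left out in turn, and its difference was 0.17 within 1500 to 4000 UMIs. Id1 fell to 0.059 without HFpEF replicate 2 (adjusted p = 0.938) and was not called without NC replicate 1 (adjusted p = 0.538) or NC replicate 2 (adjusted p = 1). Vwf, the von Willebrand factor gene, differed by 2.68, had UMIs in 30 of the 583 tip-like cells and turned to −1.07 on thinned counts. It was not called without NC replicate 1 (adjusted p = 0.0613) or HFpEF replicate 2 (adjusted p = 0.844).

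The effect was more negative in the tip-like cells for 2 of 18 cytoskeleton genes, by −0.41 for Vim (adjusted p = 0.00519) and −0.69 for Fscn1 (adjusted p = 0.000223), and for 2 of 22 matrix genes, by −0.36 for Sparc (adjusted p = 0.0257) and −2.10 for Col18a1 (adjusted p = 0.00715, 59 cells with a UMI). Without HFpEF replicate 2 none of the 4 was called, with −0.16 for Vim (adjusted p = 0.893), −0.37 for Fscn1 (adjusted p = 0.861), −0.17 for Sparc (adjusted p = 0.892) and −2.34 for Col18a1 (adjusted p = 0.679). Vim, Fscn1 and Sparc were not called without NC replicate 1, nor Vim, Sparc and Col18a1 without NC replicate 2, and Sparc was not called with RLE size factors (adjusted p = 0.0619). Within 1500 to 4000 UMIs Vim turned to 0.016. Of 10 chemokine genes 2 were more negative, Ccl2 and Cxcl9, and of 18 interferon genes 2, Gbp2 and Rsad2. More positive were 4 of 13 antigen presentation genes, the class II genes Cd74, H2-Aa, H2-Ab1 and H2-Eb1. Most UMIs of Cd74 and of H2-Ab1 in the tip-like cells lay in 1 cell, as given above. Their diet effects within these cells turned to −0.73 and −0.24 with a threshold of 1 UMI. Without cells holding markers of other cell types neither was called between the diets by edgeR (adjusted p = 0.406 and 0.438). Cxcl9 differed by −0.65 and turned to 0.011 within 1500 to 4000 UMIs and 1.07 on thinned counts. Gdf15, a stress-induced cytokine gene, differed by −1.52 from 81 cells and Uchl1, a ubiquitin hydrolase gene, by −1.18 from 151 cells. Nts, the neurotensin gene, differed by −1.59 and Ubd, an interferon-induced ubiquitin-like gene, by −2.19, from 35 and 34 cells. In Ubd 42.2% of the UMIs were in 1 cell, and its difference turned to 0.66 on thinned counts. Gdf15 was not called without NC replicate 1 (adjusted p = 0.945), and Nts and Ubd fell to −0.56 and −0.44 without NC replicate 2 and were not called there or without HFpEF replicate 2. Cxcl9 was called only without HFpEF replicate 2 among the libraries left out, and Uchl1 only without HFpEF replicate 1, so none of the 15 kept its call with each library left out in turn.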

How the results depend on the processing

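Over all alternatives of the genes named in the comparison of tip-like and other capillary ECs 924 values kept their direction and their side of the threshold, 31 lost the call and 2 turned the direction: Gm13889 was at −0.63 with all other ECs as comparison cells and Igkc at 0.80 without cells holding markers of other cell types, an alternative chosen, like every one of that kind, after seeing the data. The count of 1737 called genes became 407 within 1500 to 4000 UMIs and 791 without the library as a block, and 1247 to 1613 when each library was left out in turn. The counts against arterial-gated, vein-gated and activated ECs were then 1851 to 2383, 645 to 1023 and 1177 to 1305.

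The share of tip-like cells was lower in HFpEF by −0.46 percentage points without thinning, and higher by 0.13 to 0.82 under the other alternatives and by 0.084 to 0.36 with a library left out. The 35 genes called between the diets became 10 with DESeq2, 97 without the count filter, 91 with a threshold of 1 UMI of Apln plus Pgf, 15 with 3 UMIs, 13 without the deepest 5% of cells, 2 within 1500 to 4000 UMIs (1321 genes tested), 3 with members chosen on thinned counts and 19 without cells with markers of other types, and 36 to 132 with a library left out, the most without HFpEF replicate 1, where all 35 were still called, against 21 without NC replicate 1, 19 without NC replicate 2 and 12 without HFpEF replicate 2. For its named genes 256 values kept both, 90 lost the call, 5 gained it and 5 turned the direction: with a threshold of 1 UMI H2-Ab1 was at −0.24 and Cd74 at −0.73, and Rgs5 was at −0.45 without the deepest 5% of cells, −0.44 within the depth window and −0.12 without cells with other markers. The 39 genes of the interaction became 0 with DESeq2, 25 and 24 with thresholds of 1 and 3 UMIs, 11 without the deepest cells, 4 within the depth window, 4 on thinned counts and 17 without cells with other markers, and 10 to 63 with a library left out (10 without NC replicate 1, 17 without NC replicate 2, 63 without HFpEF replicate 1 and 15 without HFpEF replicate 2). The median over all genes there moved from −0.03 to 0.26 within the depth window and to −0.17 without HFpEF replicate 2. Of the values of its named genes 86 kept both, 104 lost the call and 5 turned: within the depth window Vim was at 0.016 and Cxcl9 at 0.011, and on thinned counts Cxcl9 was at 1.07, Ubd at 0.66 and Vwf at −1.07.

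In all capillary-gated ECs the 2 genes called became 240 with DESeq2, 726 without the count filter and 180 within the depth window, and 34 to 623 with a library left out. Apln was at 0.64 and called without the count filter (adjusted p = 0.0233) and at 0.93 without HFpEF replicate 1 (adjusted p = 0.00338), with 0.20 to 0.96 over the libraries left out. Pgf was at 0.042 without the deepest cells and 1.47 within the depth window, not called in either, and at −0.35 to −0.17 with a library left out. For none of these changes was the cause tested, beyond the fewer cells and genes that such alternatives leave. With the replicate block 50 genes were called between the diets in tip-like cells, among them all 35, with Cxcl10 now passing (adjusted p = 0.000168), and 160 in all capillary-gated ECs, where same-numbered deviations correlated at 0.02568 over 12659 genes and Scarb1 was lower in replicate 2 of both diets. With 1 library left out of 2, the lone library is assumed to vary like the others. HFpEF replicate 1 had the fewest UMIs, 199005 over its 63 tip-like cells.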
